A study of Mus musculus with 6 samples.

Results

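The genes examined here, in CD31-positive cells of mouse liver, are 10 that ERK signalling is known to switch on and that then restrain the signal or carry it on: Dusp4, Dusp5, Dusp6, Spry1, Spry2, Spry4, Spred1, Spred2, Etv4 and Etv5. They were chosen by symbol, all 10 were listed among the 13595 genes of the deposited table, and all 10 passed the filter on low values that left 12568 genes for testing. The choice was made with values of these libraries in view, in particular the spread of Dusp6 between replicates of 1 group, so Dusp6 is described below without a test.

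ERK is the last kinase of a cascade that runs from receptor tyrosine kinases through RAS, RAF and MEK. Once active it raises the transcription of its own inhibitors, so that the RNA of these genes is widely used as a readout of recent ERK activity. In endothelial cells the cascade is driven by vascular endothelial and fibroblast growth factors, and Sprouty and Spred proteins are known to limit vessel sprouting.

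Cultured endothelial cells had been isolated by CD31 from the liver of C57BL6/J mice, aged 4 weeks. All 6 libraries came from cells that received 100 µM indoxyl sulfate, a tryptophan metabolite that activates the aryl hydrocarbon receptor, with 6 hours of hypoxia and nutrient deprivation. Of these libraries, 3 were labelled male and 3 female, each numbered 4, 5 and 6, so that sex under treatment was the only contrast, and untreated cells were not analysed here. The labels do not say whether the numbers stand for mice, isolations or wells, and p-values measure only the spread between these libraries.

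The libraries held from 22303270 to 31189363 reads over the listed genes. Values are normalized read counts, in which 1 read was worth between 0.0353 and 0.0475. Xist, the RNA of X inactivation, followed the labels (234 to 324 in the libraries labelled female, 0.124 to 0.458 in those labelled male). Y-linked genes were read in all 6 libraries: Ddx3y was at 48.5 to 57.7 in the libraries labelled female and 47.2 to 76.3 in those labelled male, while Eif2s3y was lower in those labelled female (29.4 to 30.2 against 55.3 to 61.2). Every group is therefore named by its label only. The counts of marker genes that follow are from the limma test given in the next paragraph, which called 69.3% of all tested genes (34.6% in each direction). Among endothelial markers, 8 of 10 tested were lower in the libraries labelled female and 1 was higher, with summed values of 1158 to 1221 against 2177 to 2272. Pecam1, which encodes CD31, was at 73.5 to 74.5 against 391 to 423, while Cldn5, a tight junction gene of endothelium, stayed under 1 in all 6 libraries and was at 0 in female 4. Of 13 mesenchymal markers 9 were lower and 4 higher, with sums of 3503 to 4207 against 2896 to 3728, and Lum was at 0 in female 4 and female 5. The mesothelial and cholangiocyte list (4 of 6 tested higher, 2 lower) summed to 539 to 544 against 724 to 897, with Upk3b at 0 in each library labelled male. Macrophage markers (2 of 3 tested higher, 1 lower) summed to 15.2 to 18.1 against 11.9 to 14.7, with Ptprc at 0 in the libraries labelled male. Hepatocyte markers, of which Ahsg alone reached the filter and did so through the libraries labelled male, summed to 0.125 to 0.309 against 6.97 to 11.4, and Ttr was at 0 in the libraries labelled female. Vwf and Lum passed the filter only through the libraries labelled male, and Wt1 and Upk3b only through those labelled female, so the directions of these 4 were fixed by the filter. Without them, 7 of 9 endothelial markers were lower, 8 of 12 mesenchymal markers were lower, and the mesothelial and cholangiocyte list had 2 higher and 2 lower. The part of these cell types in the results below was not tested. In bulk RNA, a different share of a cell type and a different amount of RNA per cell cannot be told apart.

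Library male 4 stands apart from the others of its group for part of these genes, and the members' results are therefore given with and without it. Male 4 was singled out after its values were seen. The SE and p-values without it can therefore come out too small, and they are given only as a description. Tests are limma on log2(value + 1) over the 12568 genes, with Benjamini-Hochberg adjustment and a threshold of 0.05, and log2 fold changes are female minus male on that scale, where the change of a weakly expressed gene comes out too small. In this fit 69.3% of all tested genes were called, 34.6% lower and 34.6% higher in those labelled female. Of the 9 members other than Dusp6, 5 were called (55.6%), a share that was not above that background. The 2 called higher were Dusp5 and Spry4, and the 3 called lower were Spred1, Spred2 and Etv5. Without male 4, 74.8% of 12187 genes were called, 35.9% lower and 38.9% higher, and the counts among the 9 members were again 2 higher and 3 lower, for the same 5 genes. The median log2 fold change of the 9 members was 0.07, against 0.01 for all tested genes. Among the called members the direction differed between families, and no direction held for the 10 genes as a group.

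**Figure D1:**
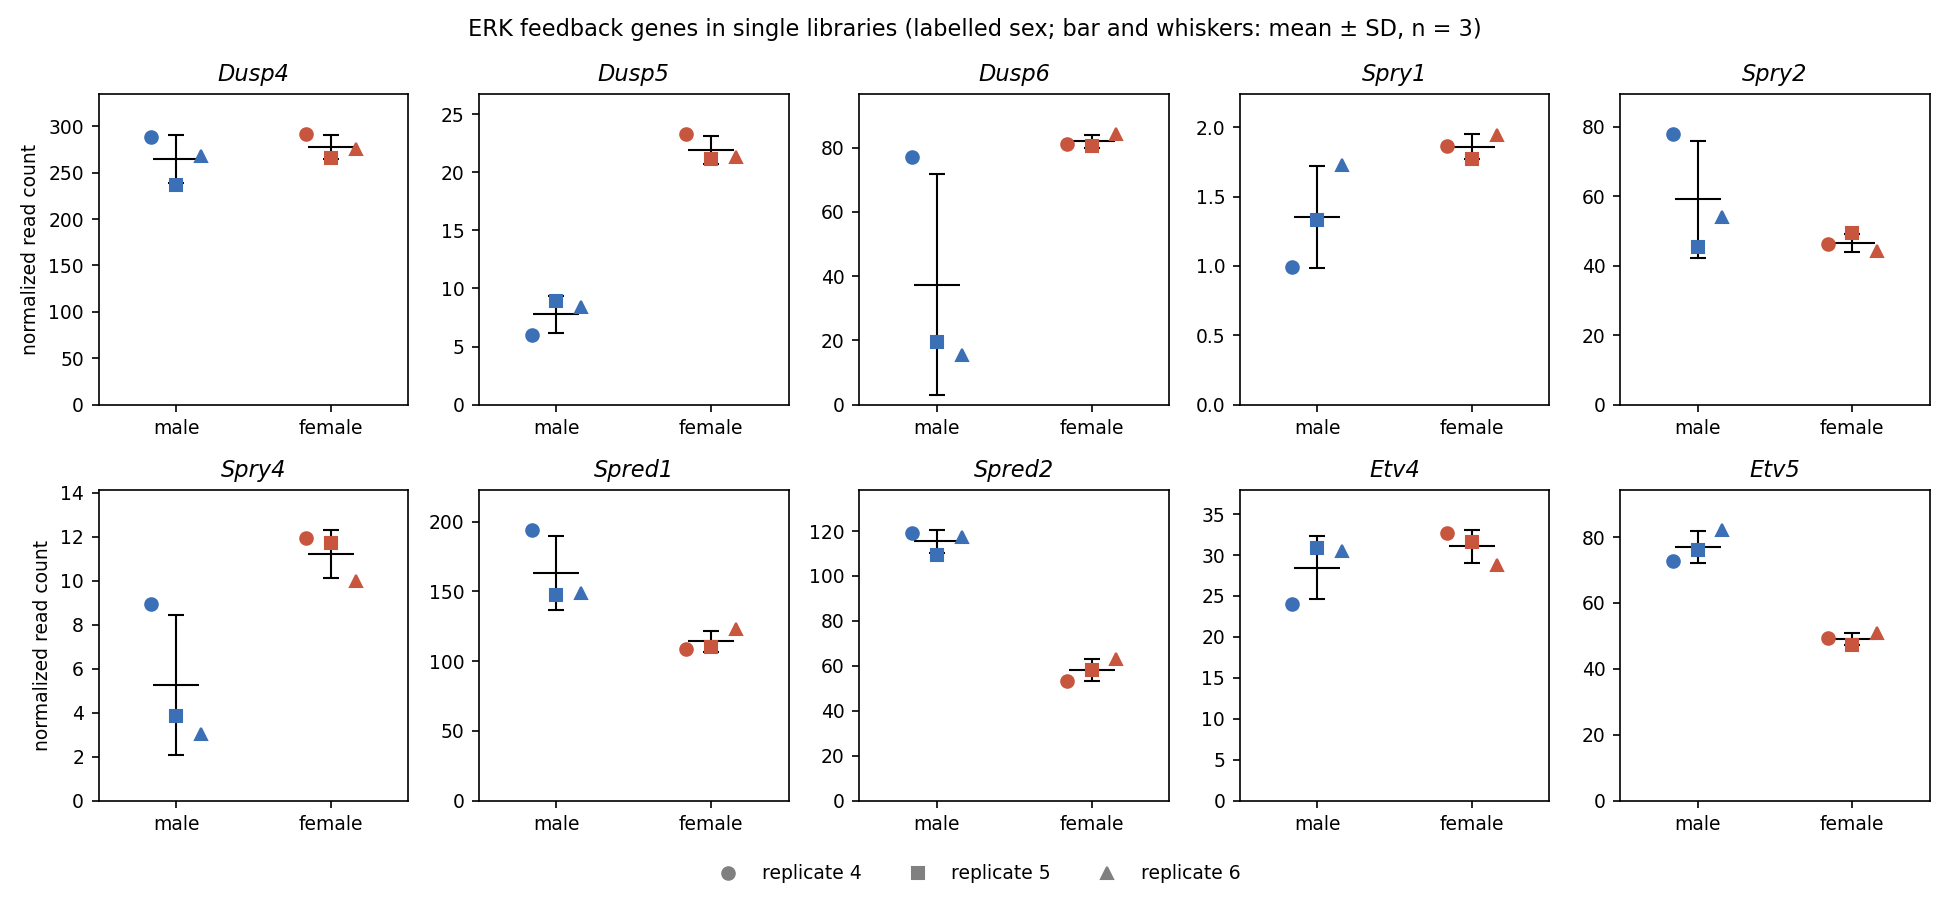
Normalized read count (vertical axes, from 0, 1 scale per gene) of the 10 ERK feedback genes in each library, with labelled sex on the horizontal axes; circles, squares and triangles are replicates 4, 5 and 6, and the bar with whiskers is the mean ± SD (n = 3). Dusp6 and Spry4 in male 4 lie near the libraries labelled female, whereas for Dusp5, Spred2 and Etv5 male 4 lies with the other libraries labelled male.

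The DUSP members encode dual-specificity phosphatases that remove the activating phosphates from ERK. Dusp6 acts on ERK in the cytoplasm, Dusp5 on ERK in the nucleus, and Dusp4 is a nuclear phosphatase with a wider range of MAP kinase substrates. Their genes lie on chromosomes 10, 19 and 8.

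Dusp6 was at 77.1 in male 4, 19.6 in male 5 and 15.3 in male 6. In the libraries labelled female it was at 81.3, 80.5 and 84.2. Male 4 thus stood at 94.0% of the mean of the libraries labelled female, while male 5 and male 6 stood far below it. The values rest on 1858, 515 and 434 reads in the libraries labelled male and 1774 to 1959 in those labelled female. The group means were 37.3 ± 34.5 (SD, n = 3) and 82.0 ± 1.99 (SD, n = 3), and the SD of the libraries labelled male was 92.3% of their mean against 2.43%. The ratio of the means, female over male, was 2.20 with male 4 and 4.69 without it, and the log2 fold changes were 1.48 and 2.18. The groups did not overlap, because male 4 was still below the lowest library labelled female.

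Dusp5 was at 5.97, 8.92 and 8.40 in male 4, 5 and 6, and at 23.3, 21.2 and 21.3 in female 4, 5 and 6. Each library labelled female was above each labelled male, and male 4 was the lowest of all 6, on the opposite side from its Dusp6 value. The means were 7.77 ± 1.57 and 21.9 ± 1.18 (SD, n = 3), which gave a log2 fold change of 1.40 (± 0.14 SE, adjusted p 3.79e-05 by limma). It was 1.25 without male 4 (± 0.09 SE, adjusted p 8.30e-07 by limma). An annotated gene on the opposite strand, AC137853.2, covers 20.5% of the 50-base stretches of the Dusp5 transcripts. AC137853.2 is not among the genes of the deposited table. Whether the authors' counting used strand is not given in the sources used here, so the Dusp5 value could hold reads of both.

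Dusp4 was at 289, 237 and 268 in the libraries labelled male and at 292, 266 and 275 in those labelled female. The groups overlapped, and the difference did not pass the test (log2 fold change 0.07 ± 0.08 SE, adjusted p 0.451 by limma). Its sign turned without male 5 (-0.0054), and it was 0.14 without male 4 (adjusted p by limma of 0.0701). Quantile normalization called it higher (0.19, adjusted p by limma of 0.0315). The 3 ERK phosphatases therefore differed in the same libraries, with Dusp4 overlapping between the groups, Dusp5 apart by labelled sex and Dusp6 with male 4 close to the libraries labelled female.

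Upstream sequences of Dusp5 and Dusp6 are shown because both were higher in the libraries labelled female while male 4 moved in opposite directions. The sequences are the 250 bases before the start in RefSeq (GRCm38.p6), Dusp5 from chr19:53528895-53529144 and Dusp6 from chr10:99262981-99263230, both on the plus strand. Capitals mark CArG boxes, the binding motif of serum response factor, in Dusp5, and the ETS core GGAA or its complement TTCC in Dusp6.
Dusp5: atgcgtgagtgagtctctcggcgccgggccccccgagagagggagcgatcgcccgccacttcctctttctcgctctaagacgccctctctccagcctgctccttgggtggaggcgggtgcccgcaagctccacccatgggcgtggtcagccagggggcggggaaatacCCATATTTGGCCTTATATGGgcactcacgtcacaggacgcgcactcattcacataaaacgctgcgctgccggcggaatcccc
Dusp6: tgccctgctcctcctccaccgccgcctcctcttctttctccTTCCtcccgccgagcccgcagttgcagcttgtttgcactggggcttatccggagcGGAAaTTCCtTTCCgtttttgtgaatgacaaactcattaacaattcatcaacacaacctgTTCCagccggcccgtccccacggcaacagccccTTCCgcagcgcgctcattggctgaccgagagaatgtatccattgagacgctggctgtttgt

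Dusp5 held 2 CArG boxes side by side, beginning 82 and 72 bases before the start. Of all 32851 promoters of the table, 1.47% held at least 1 in the same 250 bases and 6 held 2 or more. Dusp6 held 0 CArG boxes and 6 ETS cores. Dusp5 held 3 ETS cores, not marked above, and Spred2, which was lower in the libraries labelled female, held 7; the median over all promoters was 3, and 93.4% held at least 1. Both motifs were chosen after the sequences had been read. A search planned earlier, on both strands of windows reaching 50 bases past the start, looked for CCGGAAGT (ETS), TGACTCA (AP-1), TGACGTCA (cyclic AMP response element) and TGAATGAA and TGAATGGA (the Capicua repressor). It found 0 matches in the 8 promoters of the 7 members that the table lists, where 3.89%, 5.20%, 1.79%, 1.30% and 1.21% of all promoters hold these motifs, in that order. The planned search took only these exact letters, so sites of the same factors with other letters were not counted. A match is a description of the letters only.

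The Sprouty members encode membrane-associated inhibitors that act between the receptor and RAF and that are themselves induced by growth factors. Spry4, on chromosome 18, was at 8.92 in male 4 against 3.85 and 3.04 in male 5 and male 6, and at 12.0, 11.7 and 9.97 in the libraries labelled female. Male 4 was again the library labelled male nearest to those labelled female, with the groups apart by a small margin. The means were 5.27 ± 3.19 and 11.2 ± 1.08 (SD, n = 3), which gave a log2 fold change of 1.07 (± 0.29 SE, adjusted p 0.0109 by limma). Without male 4 it was 1.46 (± 0.12 SE, adjusted p 3.88e-06 by limma), and the ratio of the means moved from 2.13 to 3.26.

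Spry2, on chromosome 14, was at 77.9 in male 4, 45.5 in male 5 and 54.0 in male 6. In the libraries labelled female it was at 46.2, 49.3 and 44.2, so that only male 4 stood clear of the other 5 libraries. The difference did not pass the test with male 4 (log2 fold change -0.30 ± 0.17 SE, adjusted p 0.143 by limma) or without it (-0.09, adjusted p by limma of 0.342). It passed as lower without male 5 (-0.47, adjusted p by limma of 0.0226).

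Spry1, on chromosome 3, was the weakest of the 10 genes, with 24 to 49 reads per library. It was at 0.995, 1.33 and 1.73 in the libraries labelled male and 1.87, 1.77 and 1.95 in those labelled female. The groups met without overlapping, and the difference did not pass the test (log2 fold change 0.29 ± 0.14 SE, adjusted p 0.0911 by limma). It was 0.18 without male 4 and passed as higher without male 6 (0.41, adjusted p by limma of 0.0425). The opposite-strand gene Gm42922, which the deposited table does not list, covers 21.8% of the 50-base stretches of its transcripts. This leaves so low a value uncertain.

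The Spred members are Sprouty-related proteins that bring neurofibromin, a RAS inactivator encoded by Nf1, to the membrane. Both were lower in the libraries labelled female. Spred2, on chromosome 11, was at 119, 110 and 118 in the libraries labelled male and 53.3, 58.3 and 63.2 in those labelled female. The groups lay far apart, with means of 115 ± 5.07 and 58.3 ± 4.92 (SD, n = 3), 50.5% of the level in the libraries labelled male. The log2 fold change was -0.98 (± 0.08 SE, adjusted p 9.50e-06 by limma), and -0.95 without male 4.

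Spred1, on chromosome 2, was at 194 in male 4 and at 148 and 149 in male 5 and male 6. It was at 109, 110 and 123 in the libraries labelled female, below each library labelled male. The log2 fold change reached -0.50 (± 0.11 SE, adjusted p 0.00347 by limma) and -0.37 without male 4 (± 0.06 SE, adjusted p 3.01e-04 by limma). Here male 4 lay on the far side from the libraries labelled female, in contrast to Dusp6 and Spry4. Nf1 itself was slightly lower, with a log2 fold change of -0.30 (± 0.07 SE, adjusted p 0.00592 by limma).

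The ETV members are ETS transcription factors of the PEA3 group, induced by fibroblast growth factor and ERK and held down by the repressor Capicua. Etv5, on chromosome 16, was at 72.6, 76.0 and 82.1 in the libraries labelled male and at 49.4, 47.1 and 50.8 in those labelled female. The groups did not overlap, and the spread within each was small (76.9 ± 4.82 and 49.1 ± 1.84, SD, n = 3). The log2 fold change was -0.64 (± 0.07 SE, adjusted p 6.63e-05 by limma), and -0.68 without male 4. Etv5 shares 24.5% of its 50-base stretches with Gm4798, so part of its reads could be assigned to either. Gm4798 is not among the genes of the deposited table.

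Etv4, on chromosome 11, was at 24.1, 30.9 and 30.5 in the libraries labelled male and 32.7, 31.6 and 28.8 in those labelled female. The groups overlapped, with male 4 the lowest library. Its difference did not pass the test (log2 fold change 0.13 ± 0.11 SE, adjusted p 0.321 by limma), and it was 0.01 without male 4. Cic, which encodes Capicua, was lower (log2 fold change -0.39 ± 0.11 SE, adjusted p 0.0117 by limma), with a value of -0.25 without male 4. The related Etv1 was lower as well (-1.14 ± 0.12 SE, adjusted p 4.67e-05 by limma).

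**Figure D2:**
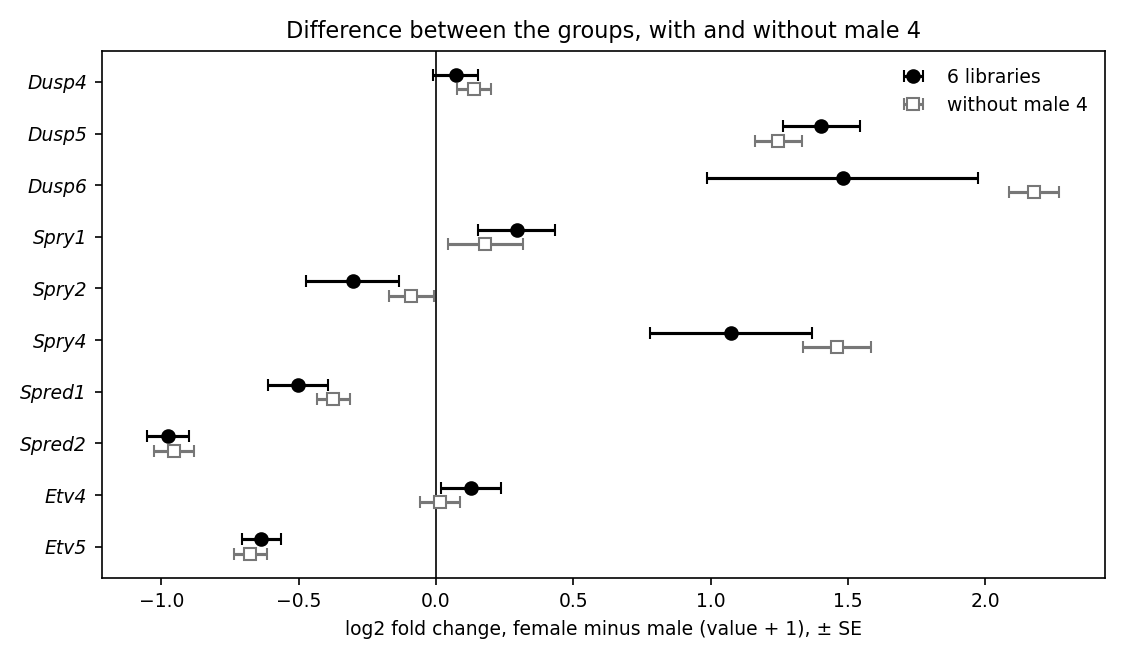
Log2 fold change (female minus male, log2(value + 1) scale, horizontal axis) of each member with its SE, from all 6 libraries (filled circles) and without male 4 (open squares). Dusp6 moves from 1.48 to 2.18 and Spry4 from 1.07 to 1.46 when male 4 is left out, and their SE shrink, while Spred2 and Etv5 stay within 0.05 of their first value. For Dusp6 the smaller SE follows from its choice by the spread between replicates and is a description only.

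Among the 9 members other than Dusp6, groups that did not overlap were seen for 6, 3 higher and 3 lower, against 74.1% of all tested genes (37.1% higher and 37.0% lower). In the authors' deposited table, Dusp5 (fold change 2.82, false discovery rate 0.00612) and Spred2 (-1.98, 0.0341) were under 0.05. Of its 13595 genes, 1625 were higher and 1882 lower at that threshold. The limma test called far more, 8704 of 12568 genes (69.3%). Spry4 (2.13, 0.0737), Etv5 (-1.57, 0.158) and Spred1 (-1.43, 0.217), which passed the limma test, were above 0.05 in the authors' deposited table. The directions in the authors' deposited table were those given here for all 10 genes.

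The libraries labelled female varied little for these genes, the highest being between 1.05 and 1.20 times the lowest. Among the libraries labelled male this ratio ran from 1.09 for Spred2 to 5.03 for Dusp6. Male 4 was 4.41 times the mean of male 5 and male 6 for Dusp6, 2.59 times for Spry4 and 1.57 times for Spry2. It was 1.31 times for Spred1 and 1.14 times for Dusp4. For Spry1 (0.649) and Dusp5 (0.689) male 4 was the lower library, and for Spred2, Etv5 and Etv4 the ratio lay between 0.784 and 1.05. Of all tested genes, 4.63% had a ratio of at least 1.5 and 6.54% a ratio as low as the inverse of 1.5; since Dusp6 was chosen for this spread, the 3 members above and 1 below are given only as a description. Spry4 followed Dusp6 over the 6 libraries with a Pearson r of 0.983, in which the 2 groups and male 4 make up most of the variation.

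Because Dusp6 was chosen for its spread, its place among other genes is a description only. Of the 8976 genes with a mean of at least 10, including Dusp6 itself, 3 others had a ratio as far from 1, namely Tmem254c (42.1), Cdk5r1 (0.202) and Tmem254b (0.0363), named after their values were seen. Tmem254c and Tmem254b are copies of 1 gene family, whose reads can be divided differently between them. On a scale from the mean of male 5 and male 6 (0%) to the mean of the libraries labelled female (100%), male 4 stood at 92.3% for Dusp6 and 70.4% for Spry4. Over the 1629 genes with a mean of at least 10 that were called without male 4 with a log2 fold change of at least 1, the median position of male 4 was 4.94%, and 9 genes, Dusp6 among them, were at 80% or more.

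Markers of the lists differed in where they placed male 4. Xist was at 0.124 in male 4, which is 3 reads, a position of -0.10% on the same scale. Over the 6 tested mesothelial and cholangiocyte markers the median position of male 4 was 7.45%, from -1.09% for Msln, a mesothelial marker, to 26.5% for Sox9. Myh11, a smooth muscle myosin, was at 1.74 in male 4 against 103 to 147 in the libraries labelled female. The contractile genes Acta2 and Tagln were 2.61 and 2.30 times the mean of male 5 and male 6 in male 4, yet stood at only 5.02% and 4.63% of the way to the libraries labelled female. Over the 13 tested mesenchymal markers the median position of male 4 was 0.11%, from -55.7% for Lum to 52.5% for Rgs5. Over the 10 tested endothelial markers it was 0.16%, from -93.5% for Emcn to 72.9% for Kdr. Their part in the Dusp6 value was not tested.

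The genes whose values over the 6 libraries were most like those of Dusp6, by Pearson r on log2(value + 1) among genes with a mean of at least 10, included Mettl20 (0.996), Lats1 (0.994), Mycbp2 (0.994) and Syne1 (0.994). Mettl20, for example, was at 28.7 in male 4, 16.3 in male 5 and 15.5 in male 6, and at 28.5 to 31.2 in the libraries labelled female. In all, 19 genes had an r of at least 0.99, and none of these correlations carries a p because the libraries fall into groups.

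**Figure D3:**
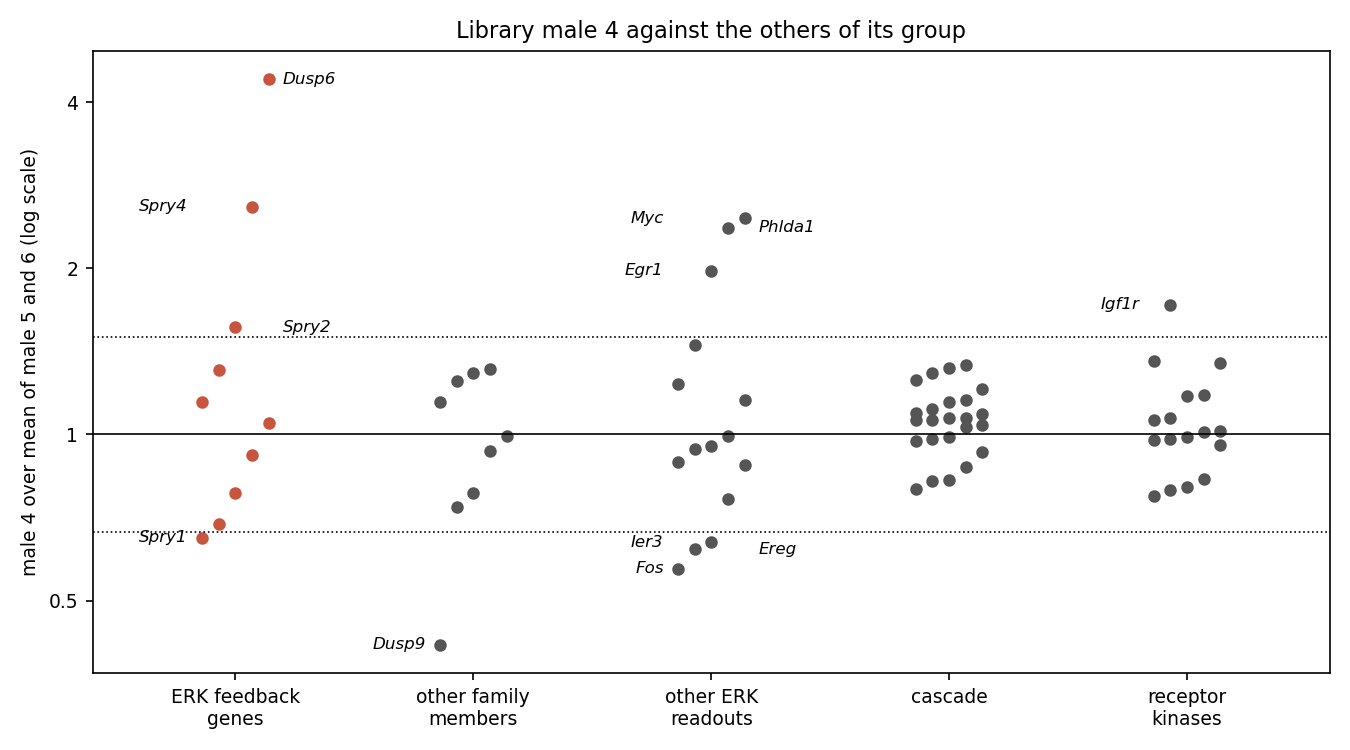
Ratio of male 4 to the mean of male 5 and male 6 (vertical axis, log scale) for each tested gene of the ERK feedback set, its other family members, the other ERK readouts, the cascade and the receptor tyrosine kinases (marker genes of cell types are not plotted); the solid line is 1 and the dotted lines are 1.5 and its inverse. Among the genes plotted, Dusp6 (4.41) lies highest, followed by Spry4 (2.59), Myc (2.46) and Phlda1 (2.37), while no gene of the cascade passes the dotted lines.

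Other genes used as readouts of ERK activity were also called in both directions. Of 15 tested, 8 were called higher and 6 lower in those labelled female (93.3%, against 69.3% of all genes), with a median log2 fold change of 0.70. Phlda1, a pleckstrin-homology protein gene of the same readout panels, was at 11.0, 5.03 and 4.27 in male 4, 5 and 6 and at 139, 125 and 140 in female 4, 5 and 6. Its log2 fold change of 4.22 (± 0.27 SE, adjusted p 2.85e-06 by limma) was the largest of the list, followed by those of Epha4, an ephrin receptor (2.35), and Myc, a growth-promoting transcription factor (1.84). Myc was at 81.5 in male 4 against 35.5 and 30.6, and Egr1, an immediate early factor, at 37.5 against 18.1 and 19.7, so both lay between the other libraries labelled male and those labelled female, which were at 152 to 172 for Myc and 51.3 to 59.9 for Egr1. The largest falls were those of Fos (-2.21), an AP-1 subunit, Lif (-2.15), a cytokine, and Ier3 (-1.83), an immediate early gene of survival. In male 4, Fos (38.8 against 65.8 and 70.0) and Ier3 (628 against 919 and 1053) were also nearer to the libraries labelled female. Ereg, an EGF receptor ligand, lay on the other side, at 47.8 in male 4 against 77.4 and 77.1 and 158 to 188 in the libraries labelled female, and for Epha4, Areg, Ccnd1 and Errfi1 male 4 was not nearer to them either. Emp1, a membrane protein gene, had male 4 at the level of the libraries labelled female, at 1282 against 854 and 908 in male 5 and male 6 and 1208 to 1301 in those labelled female. Over the 15 genes the position of male 4 ran from -33.8% (Errfi1) to 109% (Emp1), with a median of 8.80%. Without male 4 the list had 9 higher and 6 lower, with 74.8% of all genes called in that fit.

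Among the other family members, 9 of 11 were tested, with 4 higher, 4 lower and 1 not called (88.9% called, against 69.3% of all genes, with the same counts without male 4, where 74.8% of all genes were called), and a median log2 fold change of -0.16. Dusp2 was below the filter. Il17rd, which encodes the fibroblast growth factor antagonist Sef, was at 1.60 to 2.20 in the libraries labelled male and 8.22 to 10.1 in those labelled female (log2 fold change 1.81 ± 0.13 SE, adjusted p 4.99e-06 by limma). Dusp8 (1.23) and Dusp9 (1.12) were the other large increases. Etv1, Spred3 (-0.88) and Dusp16 (-0.62) had the largest decreases, so that the third Spred gene was lower along with Spred1 and Spred2. Dusp1, an immediate early phosphatase that favours p38 and JNK, was lower by -0.38 (± 0.12 SE, adjusted p 0.0214 by limma), a call that was lost without female 6, male 5 or male 6 (adjusted p by limma of 0.0818, 0.0612 and 0.0762).

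Among the cascade genes, 24 were tested, and 8 were higher, 10 lower and 6 not called, a share near the 69.3% called among all genes, with a median of -0.07. Without male 4, 10 were higher, 11 lower and 3 not called (87.5% called, against 74.8% of all genes). Mapk3, which encodes the kinase ERK1, was slightly lower, at 175 to 181 against 220 to 231 (-0.34 ± 0.05 SE, adjusted p 5.66e-04 by limma). The largest rises were those of Rasa1, a RAS GTPase-activating protein (1.66), and the RAS genes Hras (1.51) and Nras (1.10). The scaffold Ksr1 (-1.75), the ETS factor Elk3 (-1.01) and the adaptor Shc1 (-0.84) fell most.

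Of 17 receptor tyrosine kinases tested, Kit (0.190 to 0.581 in the libraries labelled female) passed the filter only through those labelled male, and Fgfr4 (0.636 to 1.14 in the libraries labelled male) through those labelled female, so their directions were fixed by the filter. Of the other 15, 9 were lower, 3 higher and 3 not called, so that 12 of 15 were called against 69.3% of all genes, with a median of -0.66. Without male 4, where 74.8% of all genes were called and Kit was not tested, 9 were lower, 4 higher with Fgfr4 among them, and 3 not called. The median was then -0.37 with Fgfr4 included, so it is not over the same genes as the -0.66. Among the 15, Pdgfrb (-3.13) and Flt1, a receptor for vascular endothelial growth factor (-2.76), had the largest decreases, and Axl (0.61) and Fgfr3 (0.58) the largest increases. Fgfr1, a receptor for fibroblast growth factors, was at 186 to 217 against 247 to 296 (-0.42 ± 0.09 SE, adjusted p 0.00287 by limma). Egfr was higher by 0.26 (± 0.08 SE, adjusted p 0.0141 by limma). Kdr, the main endothelial receptor for vascular endothelial growth factor, was read at only 2.34 to 3.96 in the 6 libraries, and its difference did not pass the test (-0.24 ± 0.14 SE, adjusted p 0.175 by limma).

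**Figure D4:**
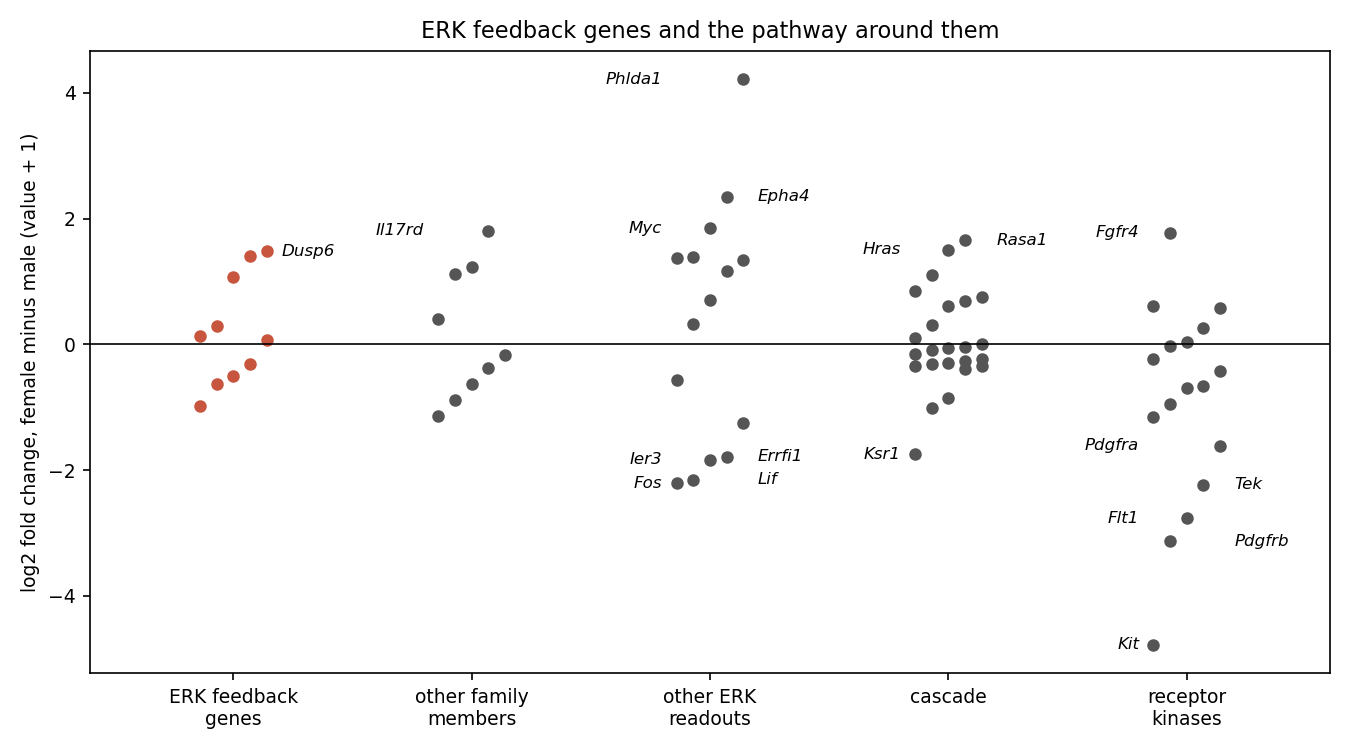
Log2 fold change (female minus male, log2(value + 1) scale, vertical axis) of every tested gene of the ERK feedback set and of the 4 lists around it; the genes farthest from 0 are named. The feedback genes lie between -0.98 and 1.48, a narrower range than the other ERK readouts, which run from -2.21 to 4.22.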

How the data were processed

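From cultured cells, 6 poly(A) RNA libraries were sequenced. The submitters' processing notes name Bowtie2, RSEM, edgeR and the build mm39, with no versions; the filter behind the table is not given in the sources used here. The deposited signal values are read counts that the authors divided by 1 factor per library, since 100% of values were whole multiples (within 0.01) of a column's smallest value above 0. Dividing by it gave back the reads. Per the file headers, the table also holds the authors' fold change (a signed score) and, as p-values, their p and false discovery rate. 0 columns of per-sample values lacked a sample.

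Values with at least 1 in at least 3 libraries were tested with limma 3.58.1 in R 4.3.3 (trend) on log2(value + 1). edgeR 4.0.16 and DESeq2 1.42.0 on the recovered reads, other scalings and each library left out were alternatives; scripts were tested on simulated data. Members and lists were chosen with earlier results of these data known. The rule for named genes took all members, the 3 largest called rises and falls of each list, and further pathway genes whatever their values; some items under the rule are not reported here; Egr1 and single marker genes were named after their values were seen. Promoters are from RefSeq (GRCm38.p6), with Dusp4, Etv4 and Spry4 unlisted there, and chromosomes and shared 50-base stretches from GENCODE M21 (GRCm38). As the builds differ, no coordinates are given for the values.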

Additional observations from a re-analysis of the deposited data

How the results depend on the processing

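The limma test called 8704 genes, between 8314 and 9085 in the 7 alternatives that kept all 6 libraries, and 7373 to 9113 when each library was left out in turn. edgeR on the recovered reads called 8651 genes and DESeq2 8558. Members called lower numbered 3 in every alternative with all 6 libraries and 3 to 4 when a library was left out. Members called higher numbered 2 except under quantile normalization, where 4 were called as Dusp4 (0.19) and Spry1 (0.33) passed, and 2 to 3 when a library was left out. The cause was not tested. The log2 fold change of Dusp4 reversed to -0.0054 without male 5 and was highest, among the fits that left out a library, without male 4 (0.14). Of 543 recomputed values of the 42 named genes, 535 kept their direction and their side of the threshold. Dusp6, which has no test, is counted among these because it moved by less than the pooled SD of its replicates on the log2 scale, a spread that male 4 widens; it moved from 1.48 to 2.18 without male 4.

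Libraries of the same number showed no pairing: their deviations from the group means correlated at -0.09 (replicate 4), -0.03 (replicate 5) and -0.17 (replicate 6). A fit with the replicate block called 8314 genes, with 3 members lower and 2 higher, and no member changed its call. Depth limits Spry1 most, with 24 to 49 reads per library. With 3 libraries per group, the difference between male 4 and the others rests on 1 library.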
